A study of Mus musculus with 4 samples.

Results

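Intragenic open chromatin was described as the ATAC-seq regions that lie inside the span of a protein-coding gene and more than 1 kb from every protein-coding gene end. ATAC-seq marks accessible DNA by letting a transposase insert sequencing adapters into it. Peaks of the 4 deposited lists were merged wherever they overlapped, and 11994 of 15316 merged regions held peaks of at least 2 libraries. Of these, 2808 (23.4%) met the rule and are called intragenic regions here. A further 7034 touched the 1 kb around a gene end (gene-edge regions), 1774 lay outside genes with an end within 100 kb (intergenic regions) and 378 lay farther out.

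The libraries were made from the mouse erythroblast line G1ER, which descends from Gata1-null cells and carries GATA1 fused to an estrogen receptor domain. The wild-type group was G1ER with intact Chd7 and the other group was G1ER with Chd7 knocked out, each with 2 libraries of 50000 cells. Both groups grew in medium with erythropoietin and stem cell factor, and the labels record no treatment. In both genotypes the labels give 1 h for replicate 1 and 2 h for replicate 2, so replicate and labelled time cannot be told apart. The labels do not say whether replicates came from separate cultures or whether the knockout line was 1 clone, so p-values measure only the spread between these libraries.

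Open sites inside genes are of several known kinds. Some are enhancers, which hold transcription factors such as GATA1, TAL1 and RUNX1 in red cell precursors, and others are alternative promoters, from which a shorter or different transcript of the host gene starts. CHD7 is a chromodomain helicase that slides nucleosomes and is known for binding enhancers as well as promoters. The title of the series pairs CHD7 with Runx1, whose gene is itself transcribed from a distal and a proximal promoter.

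Being far from a gene end did not keep these regions away from annotated transcription starts. In the RefSeq promoter table (build GRCm38.p6), which lists starts of alternative transcripts, 642 of the 2723 intragenic regions that could be assessed (23.6%) held a start. The start belonged to the host gene in 607 of them and to another gene alone in 35. The summit of such a region lay a median of 59 bp from the nearest start, and within 100 bp of it in 477 regions (74.3%). The other 2081 regions held no start of the table, and for 443 of these no host gene had an entry, so some may hold a start that the table does not list. Exons and introns were not used here.

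The starts inside intragenic regions were rich in CpG, like those at gene edges. A CpG is a C followed by a G, and the ratio of observed to expected CpGs corrects their number for the C and G content. The 300-base sequences around the 803 starts in intragenic regions had a median C and G content of 63.3%, 24 CpGs and a ratio of 0.804. The 7168 starts in gene-edge regions had 62.7%, 24 and 0.842, and the 24078 starts that lay in no called region had 49.7%, 4 and 0.267. With the nearest start taken for each region, 503 of 642 (78.3%) had a ratio of at least 0.6 and 139 had less. The 6 sequences below run from CpG-rich to CpG-poor and are shown because the level or the calls of their regions are described below. They are neither the extremes nor a sample in proportion to the whole set. Each is the RefSeq sequence from 250 bases before to 50 bases after a start, read 5′ to 3′ on the strand of the gene, with every CpG in capitals.

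Runx1: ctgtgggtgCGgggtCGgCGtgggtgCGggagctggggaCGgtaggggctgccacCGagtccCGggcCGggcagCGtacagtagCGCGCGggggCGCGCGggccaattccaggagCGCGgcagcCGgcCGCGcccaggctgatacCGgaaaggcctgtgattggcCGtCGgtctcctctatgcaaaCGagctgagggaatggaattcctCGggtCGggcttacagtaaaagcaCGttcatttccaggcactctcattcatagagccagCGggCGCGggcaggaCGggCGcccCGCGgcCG
Epb41: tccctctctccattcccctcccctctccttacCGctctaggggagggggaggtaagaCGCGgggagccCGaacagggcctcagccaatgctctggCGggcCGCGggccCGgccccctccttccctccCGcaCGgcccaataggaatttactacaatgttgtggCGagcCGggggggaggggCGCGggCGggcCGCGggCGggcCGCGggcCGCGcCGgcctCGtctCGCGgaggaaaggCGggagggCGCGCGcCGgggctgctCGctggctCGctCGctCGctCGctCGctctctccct
Kansl1: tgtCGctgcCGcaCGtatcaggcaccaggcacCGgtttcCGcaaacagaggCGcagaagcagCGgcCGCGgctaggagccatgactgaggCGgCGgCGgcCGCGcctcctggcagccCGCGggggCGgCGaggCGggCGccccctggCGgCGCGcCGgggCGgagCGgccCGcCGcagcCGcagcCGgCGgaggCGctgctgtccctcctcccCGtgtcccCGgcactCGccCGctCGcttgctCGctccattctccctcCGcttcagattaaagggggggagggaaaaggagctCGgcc
Dnmt1: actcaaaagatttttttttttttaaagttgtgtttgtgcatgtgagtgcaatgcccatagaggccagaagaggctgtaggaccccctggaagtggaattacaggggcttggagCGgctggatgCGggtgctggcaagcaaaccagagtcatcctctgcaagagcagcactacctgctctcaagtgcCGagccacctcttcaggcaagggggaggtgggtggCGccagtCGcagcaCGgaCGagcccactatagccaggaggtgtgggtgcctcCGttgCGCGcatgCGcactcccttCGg
Elf1: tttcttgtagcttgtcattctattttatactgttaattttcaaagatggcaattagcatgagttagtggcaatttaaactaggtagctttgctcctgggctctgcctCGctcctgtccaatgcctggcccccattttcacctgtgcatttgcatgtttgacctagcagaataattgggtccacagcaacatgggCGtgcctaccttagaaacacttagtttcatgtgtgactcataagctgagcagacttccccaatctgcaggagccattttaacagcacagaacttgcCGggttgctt
Pisd: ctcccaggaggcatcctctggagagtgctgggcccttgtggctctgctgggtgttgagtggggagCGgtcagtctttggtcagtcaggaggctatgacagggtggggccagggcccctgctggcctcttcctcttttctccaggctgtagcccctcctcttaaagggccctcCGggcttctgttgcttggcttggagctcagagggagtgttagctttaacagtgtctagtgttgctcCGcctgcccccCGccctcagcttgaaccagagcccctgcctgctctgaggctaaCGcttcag

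The Runx1 sequence lies at chr16:92697280-92697579 on the minus strand and is the internal start of that gene, with 35 CpGs and a ratio of 1.01. Epb41 encodes protein 4.1 of the red cell membrane skeleton, and its sequence (chr4:132049029-132049328, minus strand) held 37 CpGs, a ratio of 0.901. Kansl1, a subunit gene of a histone acetyltransferase complex, had 40 CpGs and a ratio of 0.948 (chr11:104442271-104442570, minus strand). The start inside Dnmt1, the maintenance DNA methyltransferase gene, was intermediate with 12 CpGs and 0.5 (chr9:20952930-20953229, minus strand). Those of Elf1, an ETS-family transcription factor gene (chr14:79515424-79515723, plus strand), and Pisd, the phosphatidylserine decarboxylase gene (chr5:32746293-32746592, minus strand), held 3 and 5 CpGs, with ratios of 0.202 and 0.177.

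Short motifs of blood cell factors were counted in the same 300-base sequences on both strands. The GATA letters AGATAA stood in 6.23% of the starts in intragenic regions and in 11.2% of all 32585 starts of the table. The RUNX letters TGTGGT stood in 11.1% against 16.6%, and the AP-1 and NFE2 letters TGANTCA in 4.86% against 7.85%. The GC-rich KLF letters CCNCNCCC stood in 72.0% against 49.8%, the ETS letters GGAAG in 75.5% against 71.3%, and the E-box CANNTG in 61.3% against 72.3%. Gene-edge starts gave 4.55% for GATA, 11% for RUNX, 3.31% for AP-1 and NFE2, 72.2% for KLF, 77.5% for ETS and 58.8% for the E-box. The median C and G content was 63.3% for starts in intragenic regions and 53% for all starts of the table. Base content was not matched for these shares. Matches of different motifs may overlap, and a match is a run of letters and not a measured binding site.

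Regions with a start were mostly stronger than those without and lay nearer the 5′ end of their host gene, and regions without one were spread along it. The position of the summit was taken along the host from its 5′ to its 3′ end. For 632 regions with a start and a host of known strand the median was 20.3% of the span, 5.67 kb from the 5′ end, and 532 (84.2%) lay nearer the 5′ than the 3′ end. For 1638 regions without a start it was 44.9%, 29.5 kb, and 916 (55.9%) lay nearer the 5′ end. The first 10% of the span held 28.6% of the regions with a start and 9.65% of those without.

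**Figure D1:**
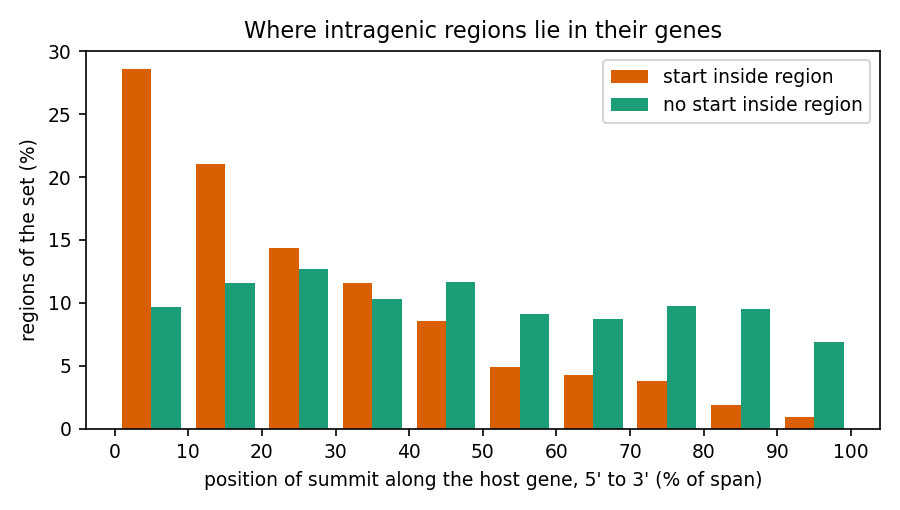
Share of intragenic regions (%, vertical axis) in each step of the host gene's span, from its 5′ to its 3′ end (horizontal axis, % of span), for 632 regions that hold an annotated start (orange) and 1638 that do not (green). Regions with a start fall from 28.6% in the first step to 0.949% in the last, and those without range from 6.90% to 12.7%.

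The strength of each peak was read as its summit pileup, which was recovered from the authors' fold enrichment and p-value. A pileup is the number of pieces of sequenced DNA that overlap at a position, called fragments here. Whether the caller piled up whole fragments or extended reads is not given. Intragenic regions with a start had median pileups of 21 (wild-type replicate 1), 25 (wild-type replicate 2), 22 (knockout replicate 1) and 21 (knockout replicate 2). Those without a start had 14, 16, 15 and 15 in the same order. Gene-edge regions had 24, 28, 26 and 24, and intergenic regions 15, 17, 16 and 15. In each library the regions with a start thus lay between the gene-edge regions and the rest, and those without a start lay beside the intergenic ones.

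Regions with a start exceeded those without by 7.25 ± 1.26 fragments of median pileup (SD over the 4 libraries). Their peaks were 149 ± 14.5 bp wider and their median fold enrichment was 1.63 ± 0.269 higher. All 3 differences had the same sign in 4 of 4 libraries, with exact two-sided sign permutation p = 0.12, the smallest that 4 libraries allow. Against gene-edge regions, regions with a start had narrower peaks (−29.5 ± 8.70 bp) and lower fold enrichment (−1.02 ± 0.0672), in 4 of 4 libraries (exact p = 0.12). Against intergenic regions, those without a start had narrower peaks (−12.1 ± 7.38 bp) in 4 of 4 libraries (exact p = 0.12), and their fold enrichment differed by −0.0990 ± 0.0852, lower in 3 and equal in the other (exact p = 0.25).

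**Figure D2:**
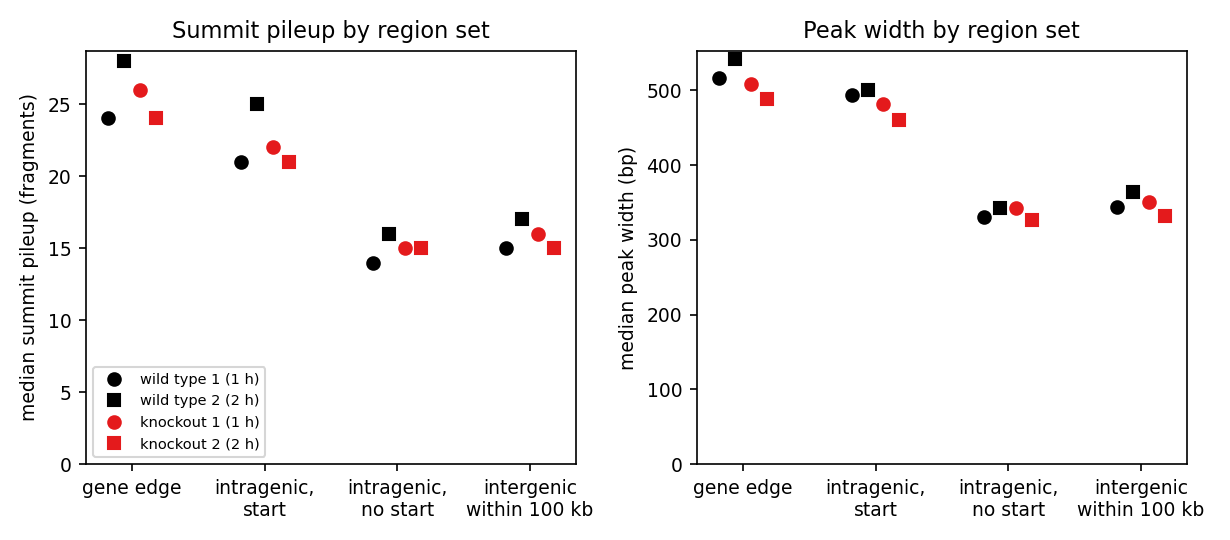
Median summit pileup (left, fragments) and median peak width (right, bp) of gene-edge regions, intragenic regions with and without a start, and intergenic regions within 100 kb, with 1 symbol per library (black wild type, red knockout, circles 1 h, squares 2 h). In every library the intragenic regions with a start lie above those without, and the latter lie near the intergenic regions.

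CpG content divided the regions with a start further. The 503 with a ratio of at least 0.6 had median pileups of 23 (wild-type replicate 1), 27 (wild-type replicate 2), 23 (knockout replicate 1) and 23 (knockout replicate 2), and a median width of 640 bp. The 139 CpG-poor ones had 17, 19.5, 17 and 16, and 462 bp. Of the CpG-rich regions 414 (82.3%) were called in all 4 libraries, and of the CpG-poor ones 86 (61.9%). This division was chosen after the values were seen.

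Calling in all 4 libraries was the commonest pattern. It was found for 1598 intragenic regions (56.9%, 95% exact binomial interval 55.1 to 58.8, which covers counting only), against 72.5% of all 11994 regions. The share was 77.9% (500 of 642) with a start and 50.1% (1042 of 2081) without, beside 84.6% of gene-edge and 52.4% of intergenic regions. The merged intragenic regions had a median width of 452 bp (206 to 1700) and lay a median of 11.8 kb from the nearest gene end, at most 708 kb. They made up 19.5% (X) to 26.5% (6) of the regions of a chromosome.

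**Figure D3:**
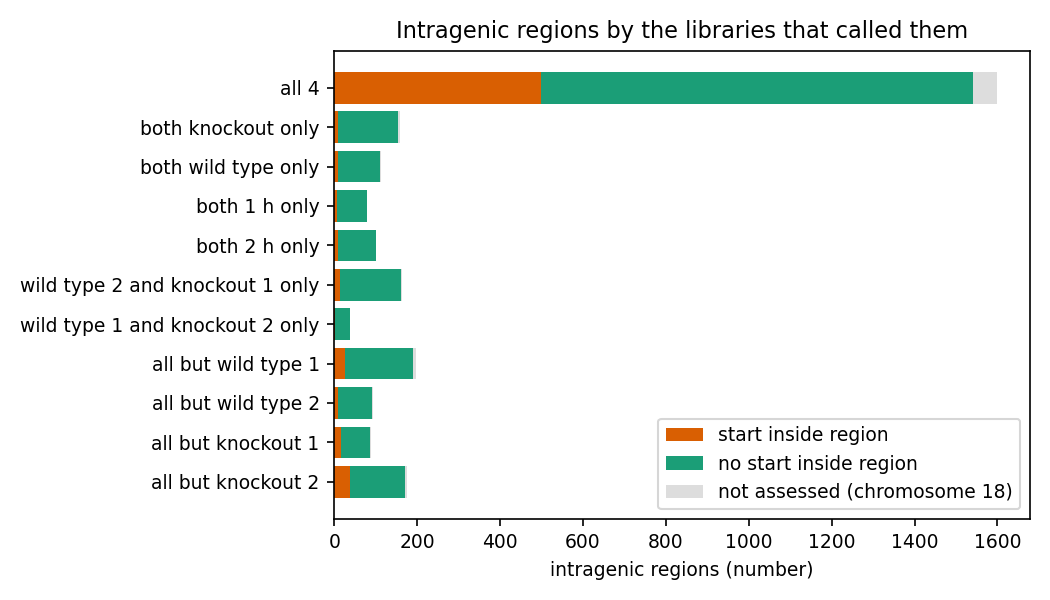
Number of intragenic regions (horizontal axis) by the libraries that called them (vertical axis), divided into those with an annotated start (orange), without one (green) and not assessed because the promoter table has no entries for their chromosome (grey). Starts fill 32.4% of the assessed regions called in all 4 libraries and 5.16% of those called in both knockout libraries alone.

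The strongest intragenic regions held no annotated start where this could be assessed. Ranked by the lowest percentile of fold enrichment over the libraries, the 10 strongest lay in Chl1, Zc3h7a, Cdk8, the overlapping genes Cmss1 and Filip1l, Gphn, Il31ra, Peak1, Kctd16, Arhgap21 and Atf2. They were 326 to 696 bp wide, 9 held no start and the Kctd16 region was not assessed. The region in Chl1, a neural cell adhesion gene, lay at chr6:103648954-103649383 with pileups of 197 and 213 in wild type, against 204 and 211 in knockout. The region in Cdk8, a kinase gene of the Mediator complex (chr5:146260903-146261446), had 225 and 231 in wild type, against 231 and 213 in knockout. The groups overlapped in both genes, and the pileups of these regions differed little between libraries whose lowest background ranged from 0.787 to 1.08 fragments. The sources used here do not give any filtering of listed problem regions.

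The strongest regions that held a start lay in Por, Abhd18, Tmem39a, Nbeal1 and Fer, a group named after its values were seen. Por encodes the reductase that passes electrons to cytochromes P450, and its internal region (chr5:135688537-135689326) had pileups of 72 and 86 in wild type, against 95 and 73 in knockout. The groups overlapped before centring, and after it both knockout values lay above both wild-type values (log2 difference 0.16 ± 0.19 SE, limma adjusted p = 0.880). The widest regions lay in Ywhaz (1700 bp), the imprinted gene Peg3 (1532 bp), Gse1 (1494 bp), Kansl1 (1469 bp) and Sin3a (1385 bp), and those of Kansl1 and Sin3a held a start.

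Intragenic regions fell in 2112 of 21627 protein-coding genes, and 1623 of these hosts held 1 region. Hosts were long genes, with a median of 57.4 kb against 17.3 kb for all, and 153 held at least 3 regions. Neighbouring regions of a gene lay a median of 16.9 kb apart, and 75 of 725 neighbouring pairs lay within 1 kb. Ccnd3, which encodes a D-type cyclin of the G1 phase, held most, with 7 regions of which 3 were called in all 4 libraries. Its strongest, chr17:47507836-47508512, had pileups of 33 and 45 in wild type, against 21 and 31 in knockout, both knockout values below both wild-type values before centring. Epha6, Gse1, Ptpre, Sox6 and Tex14 held 6 each, and 14 genes held 5, among them Runx1, Adcy7, Ccdc12, Cers6 and Chst11. The named genes other than Runx1 had between 57.3 and 969 kb of span.

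Transcription factor genes of blood cells were frequent hosts. Of 47 listed genes 24 (51.1%) held 51 intragenic regions, beside 9.77% of all protein-coding genes. This is a count and not a test, and gene length was not matched. Runx1, Klf13, Sox6 and Nfix had the strongest, all without a start. The region in Klf13 (chr7:63896808-63897365) had pileups of 23 and 28 in wild type, against 26 and 26 in knockout, and the one in Nfix (chr8:84730717-84731332) had 20 and 23 against 23 and 23. Sox6, whose product silences embryonic globin, had 16 and 20 against 21 and 20 at chr7:115941717-115942240. In all 3 genes the raw values of the genotypes overlapped or touched. After centring both knockout values lay above both wild-type values in Sox6 and Nfix, and the genotypes overlapped in Klf13. Erg, an ETS factor gene, held 3 regions called in every library, and Zfpm1, which encodes the GATA1 cofactor FOG1, held 4, of which 3 were called in every library.

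Of the other lists, red cell genes were hosts in 10 of 40 cases (25%, 18 regions) and cytokine signalling genes in 8 of 37 (21.6%, 12 regions). Chromatin genes were hosts in 17 of 40 (42.5%, 27 regions). That list held remodellers beside Polycomb, DNA methylation and histone methylation genes such as Jarid2, Dnmt1, Tet2 and Kmt2d. Gene length was not matched for these lists. Bcl2l1, the BCL-XL survival gene, had the strongest region of the red cell list (chr2:152831142-152831861), which held a start, with pileups of 41 and 42 in wild type, against 40 and 36 in knockout. The Epb41 start shown above lay in a region with 22 and 31 against 20 and 24, and the groups overlapped. A region in Alas2, which overlaps Apex2 and encodes the erythroid enzyme of the first step of haem synthesis, had 16 and 21 against 27 and 17. Jarid2, a Polycomb partner, led the chromatin genes with 66 and 79 against 67 and 77 (chr13:44869479-44870115). Sos1, an exchange factor for RAS, led the signalling genes with 37 and 40 against 51 and 36 (chr17:80468390-80468872). The Dnmt1 start lay in a region with 28 and 28 against 23 and 26, both knockout values below wild type before centring (log2 difference −0.11 ± 0.20, limma adjusted p = 0.931).

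Marker genes of other cell types were counted as hosts in the same way. Lists of 11 to 16 genes give counts and not tests, and gene length was not matched. Megakaryocyte genes were hosts in 4 of 14 cases (28.6%: Itga2b, Itgb3, Rab27b and Selp), beside 9.77% of all protein-coding genes and 25% of red cell genes. The strongest region in Rab27b was called in both knockout libraries alone, and that in Selp in both 1 h libraries alone. Mast cell genes were hosts in 1 of 11 cases (9.09%, Cpa3) and myeloid genes in 1 of 16 (6.25%, Spi1). Lymphoid genes had 0 of 16 and fibroblast and endothelial genes 0 of 12. Chd7 itself held 0 intragenic regions, so these regions give no check of the genotype labels. Gata2 and Kit also held 0.

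Runx1 (chromosome 16, 92601466 to 92826074) held 5 intragenic regions, and none was called in 1 genotype alone. The region over its internal start (92697264 to 92697564) was weak: it had pileups of 14 in wild-type replicate 2 and of 11 and 9 in knockout replicates 1 and 2, and no peak in wild-type replicate 1. The strongest (92715517 to 92716214) had 27 and 34 in wild type, against 48 and 31 in knockout, so that knockout was higher at 1 h and lower at 2 h before centring. After centring both knockout values lay above both wild-type values, with log2 differences of 0.70 at 1 h and 0.14 at 2 h. The region did not pass the test (log2 difference 0.42 ± 0.21 SE, limma adjusted p = 0.621). A neighbouring pair at 92800869 to 92801337 and 92801550 to 92802044 had 18, 17, 18 and 13 fragments and 25, 27, 28 and 22 fragments, wild type named before knockout and replicate 1 before replicate 2. The last, at 92822042 to 92822441, had 19, 16 and 13 in the same order without wild-type replicate 1. Gata1 held 1 region (chromosome X, 7964087 to 7964422) with 14 and 18 in wild type, against 12 and 11 in knockout. Its groups did not overlap, and it did not pass the test (log2 difference −0.35 ± 0.18, limma adjusted p = 0.633).

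The number of intragenic regions called did not separate the genotypes. Wild-type replicates 1 and 2 called 2187 and 2438 and knockout replicates 1 and 2 called 2466 and 2276, so the values overlapped. The means were 2312 ± 177 and 2371 ± 134 (SD, n = 2), a difference of 58.5 with exact permutation p = 0.667. The smallest p that 2 against 2 libraries allow is 0.33. As a share of each library's regions that another library also called, intragenic regions made up 21.0% and 22.1% in wild type, against 22.4% and 21.7% in knockout (difference 0.474 percentage points, exact permutation p = 0.667).

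Intragenic regions called in both libraries of 1 genotype and neither of the other were few and weak. Both knockout libraries alone called 159 (5.66%, beside 3.46% of all regions), and both wild-type libraries alone called 113 (4.02%, beside 2.88%). Of intergenic regions 8% were knockout-only and 4.74% wild-type-only, and of gene-edge regions 1.15% and 1.95%. The same libraries split by labelled time gave 182 intragenic regions (6.48%, beside 3.82% of all regions) and split crosswise 201 (7.16%, beside 4.22%). Split by genotype they gave 272 (9.69%, beside 6.34%). Wild-type replicate 2 and knockout replicate 1 alone called 163 (5.8%, beside 3.25%), the most of any pair. When peaks under a −log10 q of 5 were dropped from the lists, the order of the knockout-only and wild-type-only counts turned, to 106 and 120. The knockout count was 254 without wild-type replicate 1 and 358 without wild-type replicate 2, and the wild-type count was 290 and 202 without knockout replicates 1 and 2, since fewer absences are then required.

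Most of these exclusive regions held no start: 8 of 155 assessed knockout-only regions did (5.16%), and 10 of 110 wild-type-only ones (9.09%), beside 32.4% of those called in all 4 libraries. Their median pileups were 11 and 12, against 20 for regions called in all 4. The other 4 pairs of libraries gave like values, with starts in 7.89% to 9.9% of the regions called in that pair alone and median pileups of 11 to 12. By fold enrichment, 3 of the knockout-only regions stood in the upper part of both calling lists, past the middle, and 0 of the wild-type-only ones did. The strongest knockout-only regions lay in Lrrfip2 (chr9:111152328-111152812, pileups of 24 and 27), Atp8b1 (20 and 17), Chrna5, a nicotinic receptor subunit gene (20 and 15), Eipr1 (19 and 18) and Zfyve16 (14 and 14). The strongest wild-type-only regions lay in Esr1, the estrogen receptor gene (chr10:4787032-4787380, 15 and 15), Wipi1, an autophagy gene (29 and 28), Lmnb1 (13 and 18), Frs2 (12 and 16) and Sgk3 (12 and 14). None of the 10 was found to hold a start, with those in Atp8b1 and Lmnb1 not assessed.

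The exclusive regions that did hold a start are named here after their values were seen. The CpG-poor start of Elf1 (region chr14:79515466-79515948) was called in knockout alone, with pileups of 14 and 18, and so was a second Elf1 region without a start, with 12 and 12. The other 7 knockout-only starts belonged to Ecpas, Gemin6, Aldh1a1, Arhgap6, Frmd4a, St7 and Ssh2. Among the 10 wild-type-only starts were those of Tsc22d1 (13 and 13), Mrps2 (13 and 12), E2f3, a cell cycle transcription factor gene (24 and 32), and Ldb1, which encodes the LIM-domain partner of GATA1 and TAL1 (12 and 11). The lowest percentiles of fold enrichment of these regions were 30.7, 29, 4.83 and 1.83 in the same order. CpG ratios were under 0.6 in 4 of the 8 knockout-only and 3 of the 10 wild-type-only starts. A peak below the calling threshold has no value in the lists, so absence from the other genotype is not a measured 0.

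Pileups were compared region by region over the 8697 regions called and recovered in all 4 libraries, of which 1598 were intragenic. The values were log2(pileup + 1), centred on the median of each library, and fold changes on this scale understate changes of low pileups. Limma called 0 regions at an adjusted p under 0.05 in either direction (0% of all regions), and the smallest adjusted p was 0.293 among intragenic regions. At an unadjusted limma p under 0.05 there were 153 intragenic regions higher and 57 lower in knockout (13.1% together). Of all regions 5.02% were higher and 3.68% lower (8.7% together). Both directions together made up 15.8% of intragenic regions without a start and 6.4% of those with one. They made up 14% of intergenic regions, 14.9% of those farther out and 6.46% of gene-edge regions. In simulated data of this size the fit called 197 of 200 regions changed 4-fold and 0 of 200 changed 2-fold. Without knockout replicate 2, with the lone knockout library assumed to vary like the wild type, 7 intragenic regions were called higher and 7 lower, beside 21 (0.227%) and 34 (0.368%) of all 9247 regions then tested.

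Among intragenic regions whose genotypes did not overlap, those without a start were more often higher than lower in knockout, and those with a start about equally often either, which turned to mostly lower in both when libraries were scaled by their lowest background. Both knockout libraries exceeded both wild-type libraries in 428 intragenic regions (26.8%, beside 21.4% of all regions) and lay below them in 246 (15.4%, beside 17.3%). Without a start the counts were 310 (29.8%) and 137 (13.1%) of 1042, and with a start 97 (19.4%) and 105 (21.0%) of 500. Intergenic regions were higher in 28.8% and lower in 12.7%, and those farther out in 35.6% and 10.4%. Gene-edge regions were higher in 18.3% and lower in 18.8%. The median log2 difference was 0.09 without and 0.00 with a start, and 0.09 for intergenic and −0.00 for gene-edge regions. With a mean pileup of at least 20, regions with a start were higher in 15.1% and lower in 24%. Those without a start were then higher in 30.4% and lower in 15.7%, beside 18.4% and 19.8% of all regions. These directions rest on the centring: with each library scaled by its lowest background the median of all regions moved to −0.21 and that of intragenic regions to −0.17. The counts without a start were then 104 higher and 330 lower, and with a start 15 and 217. Regions without a start were thus higher in 9.98% and lower in 31.7% of cases and those with a start in 3% and 43.4%, beside 4.74% and 41.4% of all regions.

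The gap between sets within a library does not depend on the centring. The median log2 pileup of regions without a start lay below that of regions with one in every library, with differences of −0.56 and −0.40 in wild type, against −0.36 and −0.34 in knockout (replicate 1 named before replicate 2). The gap was narrower in both knockout libraries, by 0.13 (0.19 at 1 h and 0.06 at 2 h), with exact permutation p = 0.33, the smallest possible. For all intragenic regions against all others it was −0.45 and −0.37 in wild type, against −0.28 and −0.32 in knockout, a difference of 0.11 (exact permutation p = 0.33). Against intergenic regions the gap of those without a start differed by 0.01 between genotypes (exact permutation p = 1), and that of regions with a start against gene-edge regions by 0.02 (exact permutation p = 0.667).

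Wild-type replicate 1 had the widest gap and the lowest background, 0.787 fragments against 1.01 to 1.08 in the other libraries. Without it 9234 regions were called in every remaining library, in place of 8697. Over these the narrowing was 0.14 between regions with and without a start and 0.10 between intragenic and other regions. Over the 8697, the first gap was −0.40 in wild-type replicate 2, against −0.36 and −0.34 in knockout. The second was −0.37 in wild-type replicate 2, against −0.28 and −0.32 in knockout. Among regions with a mean pileup of at least 20 the narrowing was 0.08 and −0.01, so the second of these turned. In 4 equal classes of mean pileup over all regions, the median log2 difference of those without a start was 0.09, 0.14, 0.07 and 0.08 from the lowest class to the highest. With a start it was 0.03, −0.01, −0.01 and 0.00.

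**Figure D4:**
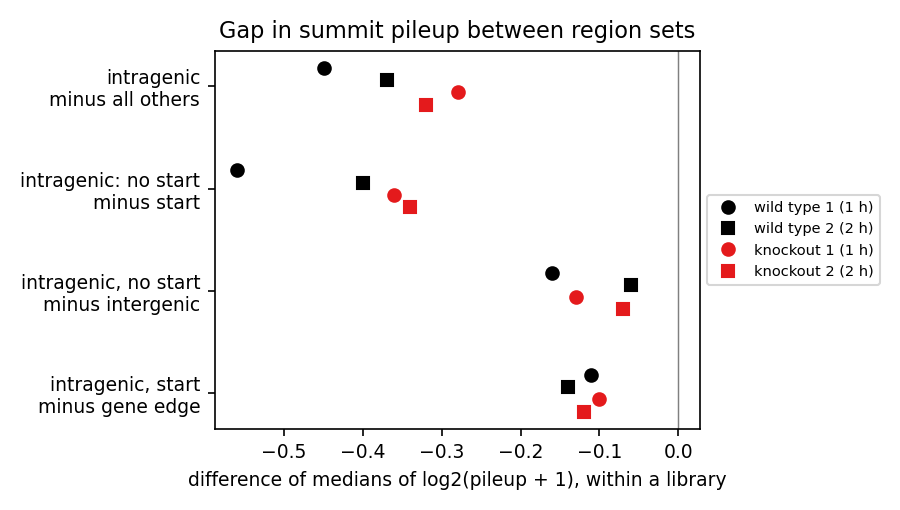
Difference between the medians of log2(pileup + 1) of 2 sets of regions within a library (horizontal axis), for 4 pairs of sets (vertical axis), with 1 symbol per library (black wild type, red knockout, circles 1 h, squares 2 h). In the upper 2 pairs both knockout libraries lie nearer to 0 than both wild-type libraries, and in the lower 2 the genotypes overlap.

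No single intragenic region passed the test, and the largest differences between groups that did not overlap are given as values. Higher in knockout were regions in Armc9, Iffo2, Sec16b, Add2 and Wdr7. In Armc9, a gene of cilia, the region at chr1:86228565-86229050 had 8 and 19 in wild type, against 33 and 30 in knockout (log2 difference 1.36 ± 0.28 SE, limma adjusted p = 0.293). Iffo2 had 15 and 15 against 37 and 29 (chr4:139574199-139574705, 1.16 ± 0.19, limma adjusted p = 0.293). Sec16b had 8 and 13 against 20 and 24, and Wdr7 had 14 and 17 against 41 and 22. Add2 encodes beta-adducin of the red cell membrane skeleton. Its region at chr6:86074732-86075299 had 18 and 15 against 33 and 32 (1.02 ± 0.21, limma adjusted p = 0.293). Of its other 3 regions, 1 had 10 and 16 against 23 and 25, 1 had 18 and 14 against 12 and 10, and 1 was called in wild type alone with 14 and 14.

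Lower in knockout were regions in Pisd, Zfx, Itsn1, Angpt1 and Chst11. The CpG-poor Pisd start shown above lay in a region (chr5:32746210-32746645) with 18 and 22 in wild type, against 9 and 9 in knockout (log2 difference −0.98 ± 0.19, limma adjusted p = 0.293). Zfx, a zinc finger transcription factor gene on the X chromosome, had 28 and 35 against 11 and 19. Itsn1, an endocytosis scaffold gene, had 17 and 30 against 12 and 11. Angpt1, the gene of a ligand of the TEK receptor, had 12 and 21 against 8 and 8, and Chst11, a chondroitin sulfotransferase gene, 15 and 20 against 8 and 10. The CpG-rich Kansl1 start lay in a region with 30 and 29 against 18 and 17 (−0.64 ± 0.19, limma adjusted p = 0.387). With libraries scaled by their lowest background, 11 intragenic regions passed: Armc9 and Iffo2 higher, and Pisd, Zfx, Itsn1, Angpt1, Chst11, Nudt3, Tbc1d14, Tapt1 and Tmem135 lower. Over all 8697 regions 5 were then called higher (0.0575%) and 65 lower (0.747%), so the intragenic calls are not a result about intragenic regions.

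**Figure D5:**
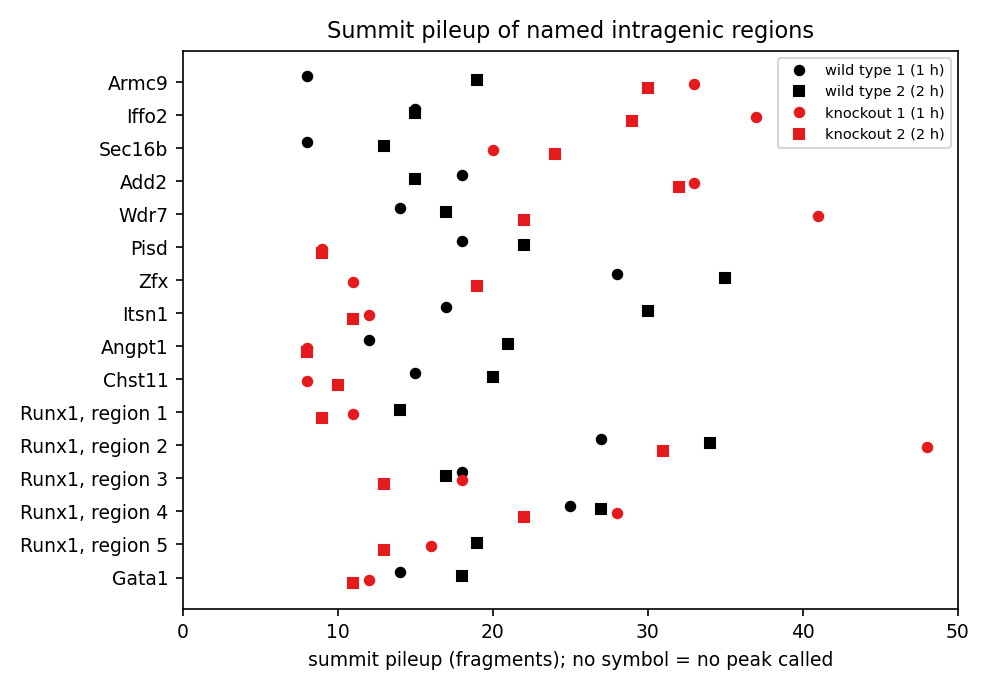
Summit pileup (fragments, horizontal axis) of 16 intragenic regions (vertical axis), with 1 symbol per library (black wild type, red knockout, circles 1 h, squares 2 h) and no symbol where no peak was called. In the 10 regions from Armc9 to Chst11 the genotypes do not overlap, and in Gata1 they do not overlap either. In the strongest Runx1 region these uncentred values (27, 34, 48 and 31) overlap. After centring both knockout values of that region lie above both wild-type values.

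The regions nearest to the 1 kb limit are given as values. Just inside it lay regions in 9430038I01Rik (1002 bp from a gene end, pileups of 64 and 72 in wild type, against 54 and 54 in knockout), Gpt (1007 bp), Clec11a (1009 bp, 83 and 91 against 96 and 92), Arih1 (1009 bp) and Usp4 (1014 bp), the last 2 with an annotated start. Just outside lay regions in Bach1 (1000 bp), Gm36327 (996 bp, 42 and 36 against 43 and 43), Ube2g1 (993 bp), Spindoc (992 bp) and Tnfaip2 (991 bp, 18 and 25 against 25 and 21). The 5 inside were called in all 4 libraries, with strength percentiles of 22.7 to 82.6. Of the 5 outside, those in Bach1 and Ube2g1 were called in 2 libraries, and the percentiles were 0.75 to 20.7.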

How the data were processed

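The 4 files were MACS2 peak lists, 1 per library, on build GRCm38 per the deposited peak names. The submitters' processing notes list Bowtie2 2.2.1 with MACS2 2.1.0. How reads were shifted, duplicates handled, peaks thresholded and problem regions filtered is not given in the sources used here. The deposited score is a whole number per peak and was not used as a level. The fold enrichment in the deposited lists is a ratio, pileup over local background at the summit. The deposited −log10 p and −log10 q values are the authors' own. The deposited summit offset gave positions.

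Pileup and background were recovered from fold enrichment and −log10 p (tolerance 0.001), for all but 1 peak per library. Comparing pileups takes it that they were not rescaled by the caller. Read totals were unknown. Lists held 11074 and 12033 peaks in wild type, against 12431 and 11361 in knockout, with lowest backgrounds of 0.787, 1.08, 1.04 and 1.01. Chromosomes 1 to 19 and X were used, with a RefSeq gene table of GRCm38.p6. Each library's median log2(pileup + 1) was subtracted, and limma 3.58.1 (R 4.3.3) was fitted without covariates, with Benjamini-Hochberg adjustment. Values per library were compared by exact permutation over the 6 assignments of labels. Scripts ran in Python 3.11.15 with pandas 2.3.3, numpy 2.4.6, scipy 1.17.1 and matplotlib 3.10.9, beside bedtools 2.31.1.

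The steps were tested on simulated data: 99.62% of 4979 simulated pileups were recovered, and 9 unchanged regions were called beside the 197 changed 4-fold. The regions and gene lists were chosen with earlier results of these data known. Named were the 10 strongest called in all 4 libraries, the 5 strongest exclusive to each genotype, the 5 largest differences in each direction whose groups do not overlap, the 10 genes with most regions (14 genes tied at 5 regions, and the first 4 of these by name were taken), up to 4 per gene list and its exclusive regions, the 5 widest, the 5 nearest either side of the 1 kb limit, and those in Runx1, Gata1, Gata2, Kit and Chd7. From these a selection is printed.

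The division by annotated start left out 85 regions on chromosome 18, which has no entries in the promoter table, and was chosen after the data were seen, as were the division by CpG ratio the motif counts around starts and the use of means in place of medians. The planned motif counts in 200 bp around summits need a genome sequence and were not run. Alternatives were other merging, distance, gene and list rules, another pseudocount, centring, pileup minimum and unit, a block for the replicate number, and leaving out each library.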

Additional observations from a re-analysis of the deposited data

Results flagged for a closer look

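Knockout and wild type differed in opposite directions at the 2 labelled times in the numbers of intragenic regions called. Knockout minus wild type was 279 regions at 1 h and −162 at 2 h. As a share of the regions called, it was 1.38 percentage points at 1 h and −0.429 at 2 h. For regions with an annotated start it was 19 and −43, and for regions without one 253 and −115. With 1 library per genotype at each time, the difference between times was not tested. The lists also differed in length the same way, with 11074 peaks in wild type and 12431 in knockout at 1 h, and 12033 and 11361 at 2 h. With the lists reduced to equal length, the difference in number was 77 at 1 h and −22 at 2 h. The share was then 20.8% and 21.3% in wild type, against 21.5% and 21.4% in knockout, so it no longer turned between times (0.732 and 0.139 percentage points).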

How the results depend on the processing

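The number of intragenic regions (2153 to 3111) and the counts exclusive to a genotype (106 to 174 knockout-only and 98 to 129 wild-type-only) stayed within 1.5 times the reported values under other merging, distance, gene and list rules. With at least 3 of 4 libraries required, 74.2% were called in all. With −log10 q of at least 5 the difference in number between genotypes was −23.5. Scaling by the lowest background gave 2 intragenic regions higher and 9 lower (5 and 65 over all regions), a difference of the set medians of −0.15 and a median difference per region of −0.17. With a mean pileup of at least 20 the difference of the set medians was −0.01 and that of the gap to other regions −0.01, where means in place of medians gave 0.05. The cause was not tested for these.

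Leaving out 1 library gave 69.6% to 70.7% called in every library used, 254 to 358 knockout-exclusive and 202 to 290 wild-type-exclusive regions, all because fewer calls or absences are required. The difference in number ranged from −73 to 166, that in share from −0.0218 to 0.828 percentage points, and limma called 0 to 7 regions higher and 0 to 7 lower. The 7 and 7 came without knockout replicate 2, and over all regions 21 and 34. The cause was not tested. The gap between regions with and without a start narrowed in knockout by 0.10 to 0.23 without 1 library, over the regions called in every remaining library. Under the other settings it narrowed by 0.07 to 0.19.

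Replicate numbers did not pair the libraries: the replicate differences of the genotypes correlated at 0.002 over 8697 regions. With the replicate block limma called 2 regions, both intergenic (limma adjusted p = 0.0434, the smallest over all regions), and 0 intragenic ones. The set median difference was then 0.09 and the gap difference 0.11. The block gave 58.5 for the number and 0.474 for the share, and changed no call on intragenic regions. Counts near the calling threshold limit the weak regions, and depth is unknown.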
